A study of Mus musculus with 15 samples.

Results

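Exposure to any of 4 odour conditions was compared with no odorant in the mouse olfactory epithelium, and the genes described are those, other than chemosensory receptor genes, that moved in the same direction under all 4. The mice were wild-type C57BL/6J males of 8 weeks, kept singly in odour-proof containers for 4 h and then exposed for 90 min. The odorants were acetophenone with decanal for A+D and A&D, and octanal with cis-3-hexenol for O+C and O&C, at 10 µL of each odorant. In A+D and O+C both odorants were put together on a single filter paper, in A&D and O&C each had a paper of its own with a gap of about 1 mm, and Control mice were given empty paper. RNA bound to ribosomes that carry phosphorylated ribosomal protein S6 was immunoprecipitated (pS6-IP) and sequenced from 3 biological replicates of each of the 5 groups, all under 1 batch label. There was no single-odorant group, so the components of a mixture cannot be told apart. The mean of the 4 odour groups (12 libraries) was set against Control (3 libraries) in 19229 genes with enough counts, of which 18303 were not receptor genes. Members were the non-receptor genes with an adjusted p under 0.05 (edgeR quasi-likelihood test) and the same sign of log2 fold change in every odour group. They numbered 1450, with 886 higher and 564 lower in the odour groups.

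Olfactory sensory neurons detect odorants with G-protein-coupled receptors on their cilia. The receptors act through the olfactory G protein, adenylyl cyclase and a cyclic-nucleotide-gated channel, and calcium entry follows. Active neurons phosphorylate ribosomal protein S6 and switch on immediate early genes, so pS6-IP enriches transcripts of recently active cells. Activity in these neurons is also known to set the levels of adhesion and guidance molecules that sort their axons into glomeruli. The epithelium further holds immature neurons, basal stem cells, sustentacular cells that detoxify and support, glands, glia, blood vessels and immune cells. All of these can contribute RNA to a precipitate.

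The libraries held 22704177 to 25287060 counts each. Omp, the olfactory marker protein of mature sensory neurons, was at 5113 to 10092 CPM (counts scaled to a common library total) in the 12 odour libraries and at 4205 to 4925 CPM in Control, so the marker of the labelled tissue was abundant in all 15 libraries. The library of A+D replicate 2 stood apart from the rest. Its mean correlation with the other libraries was 0.958 where the others ranged between 0.970 and 0.978, and ribosomal protein transcripts took 2.15% of its counts where the others had 0.899% to 1.51%. Obp2a, an odorant-binding protein of nasal glands, was under 10 CPM in 5 libraries (A+D 2, A&D 1, O&C 1, O&C 3 and Control 1) and over it in the other 10. For this split alone, CPM used the unadjusted library totals. A gene with deposited values that were not whole numbers in at least 8 of the 15 libraries is described as sharing reads with a similar sequence, and its value is uncertain. This holds for 274 of the higher and 132 of the lower members.

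Any odour raised 5.26% of all genes tested and lowered 3.06% against Control. The 886 higher members are 4.84% of the non-receptor genes tested and the 564 lower members 3.08%. The same sign in all 4 groups, with no threshold on p, was held by 24.1% of all genes on the higher side and 25.3% on the lower side. The 4 contrasts share the 3 Control libraries, so the agreement in sign describes the members and does not count as separate support. Another 15 non-receptor genes passed the pooled test with mixed signs, 9 of them higher and 6 lower, among them the immediate early gene Ier2 (log2 fold change 0.34 ± 0.10 SE, adjusted p = 0.041, edgeR), which was at -0.01 in A+D and was lost as a call without any one of Control 1, Control 2, Control 3, A+D 3, A&D 1, O+C 1, O+C 3, O&C 2 or O&C 3 (adjusted p up to 0.189). All 15 libraries were precipitates, with no input library beside them. More cells of a type, more RNA per cell and more of that RNA on ribosomes with phosphorylated S6 therefore cannot be told apart.

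Most members changed by less than 2-fold. Higher members had a median log2 fold change of 0.51 and lower members one of -0.48, and 62 higher and 24 lower members exceeded 2-fold. All 12 odour libraries lay above all 3 Control libraries for 411 of the 886 higher members, and below them for 211 of the 564 lower members. Over all genes tested, 3.07% lay above and 1.73% below in this way. The members were chosen by a test on these same libraries, so the excess follows from that choice and is no separate support. The median change of the higher members was 0.29 for A+D and 0.41 for A&D, and it was 0.62 for O+C and 0.72 for O&C. For the lower members the medians were -0.41, -0.40, -0.52 and -0.58 in the same order. The largest change of a higher member was in O&C for 704 of 886 genes and the smallest in A+D for 632.

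The individual groups differed in how many members they could call on their own. A+D alone called 7 higher and 5 lower members, A&D 99 and 4, O+C 726 and 278, and O&C 850 and 422. Over all genes tested, receptor genes included, A+D called 0.296% higher and 0.0260% lower, and A&D 1.00% and 0.0208%. The shares were 5.74% and 2.35% for O+C, and 9.33% and 5.41% for O&C. At the threshold, Bcl11a (log2 fold change 0.38, adjusted p = 0.0499, edgeR) lay just inside and Fstl4 (0.87, adjusted p = 0.0502, edgeR) just outside. The counts depended on each Control library. The higher members numbered 294 without Control 1, 362 without Control 2 and 373 without Control 3, and the lower members 45, 108 and 329. Without O&C 3 the lower members numbered 368, and without A+D 2 there were 1405 higher and 1005 lower. Of the members, 201 higher and 18 lower remained members in all 15 fits that left out 1 library.

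Only 7 members passed the test in each of the 4 odour groups on its own, where 0.120% of all genes tested did, receptor genes included, and all 7 were higher. They were Kcng1, Heg1, Ildr2, Scgn, Nxnl2, Trim45 and 1110035H17Rik. Kcng1 encodes a silent subunit that modifies voltage-gated potassium channels. It was at 22.8, 20.9 and 26.1 CPM in A+D, 35.4, 43.0 and 32.8 CPM in A&D, 88.7, 52.5 and 56.2 CPM in O+C, and 61.0, 71.6 and 86.9 CPM in O&C, against 11.6, 11.97 and 6.73 CPM in Control. Every odour library lay above every Control library, and the octanal groups lay above the acetophenone groups. The pooled log2 fold change was 2.16 ± 0.20 (SE, adjusted p = 1.00e-05, edgeR).

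Heg1, a membrane protein of endothelial junctions and heart development, averaged 58.9 ± 18.0 CPM over the 12 odour libraries and 19.8 ± 1.95 CPM in Control (SD, n = 12 and 3). Its log2 fold change was 1.52 ± 0.12 (adjusted p = 1.22e-06, edgeR), and it shares reads. Trim45, of the tripartite-motif ubiquitin ligase family, rose by 1.09 ± 0.12 (adjusted p = 2.99e-05, edgeR), with 151 to 294 CPM in odour libraries and 83.7, 109 and 91.3 CPM in Control. It was not whole in 8 libraries.

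Scgn encodes secretagogin, a calcium sensor with EF hands. Its level was 31.7, 36.6 and 32.2 CPM in A+D, 50.1, 35.3 and 33.6 CPM in A&D, 44.3, 38.6 and 31.9 CPM in O+C, and 40.2, 44.3 and 38.8 CPM in O&C, against 18.7, 20.1 and 19.7 CPM in Control. All odour libraries lay above Control, and only A+D and O&C among the odour groups did not overlap. The log2 fold change was 0.96 ± 0.13 (adjusted p = 0.000216, edgeR). Nxnl2, a thioredoxin-like protein known in mouse for photoreceptor survival, averaged 73.8 ± 9.92 CPM in odour libraries and 38.8 ± 3.94 CPM in Control (SD, n = 12 and 3), a log2 change of 0.92 ± 0.12 (adjusted p = 0.000159, edgeR). Ildr2, an immunoglobulin-like membrane receptor, was at 2.26 to 6.14 CPM in odour libraries against 1.29, 1.12 and 1.40 CPM in Control, a log2 change of 1.64 ± 0.28 (adjusted p = 0.00186, edgeR). 1110035H17Rik rose by 1.11 ± 0.16 (adjusted p = 0.000456, edgeR) and shares reads. The 7 genes remained members in all 15 fits that left out 1 library.

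**Figure D1:**
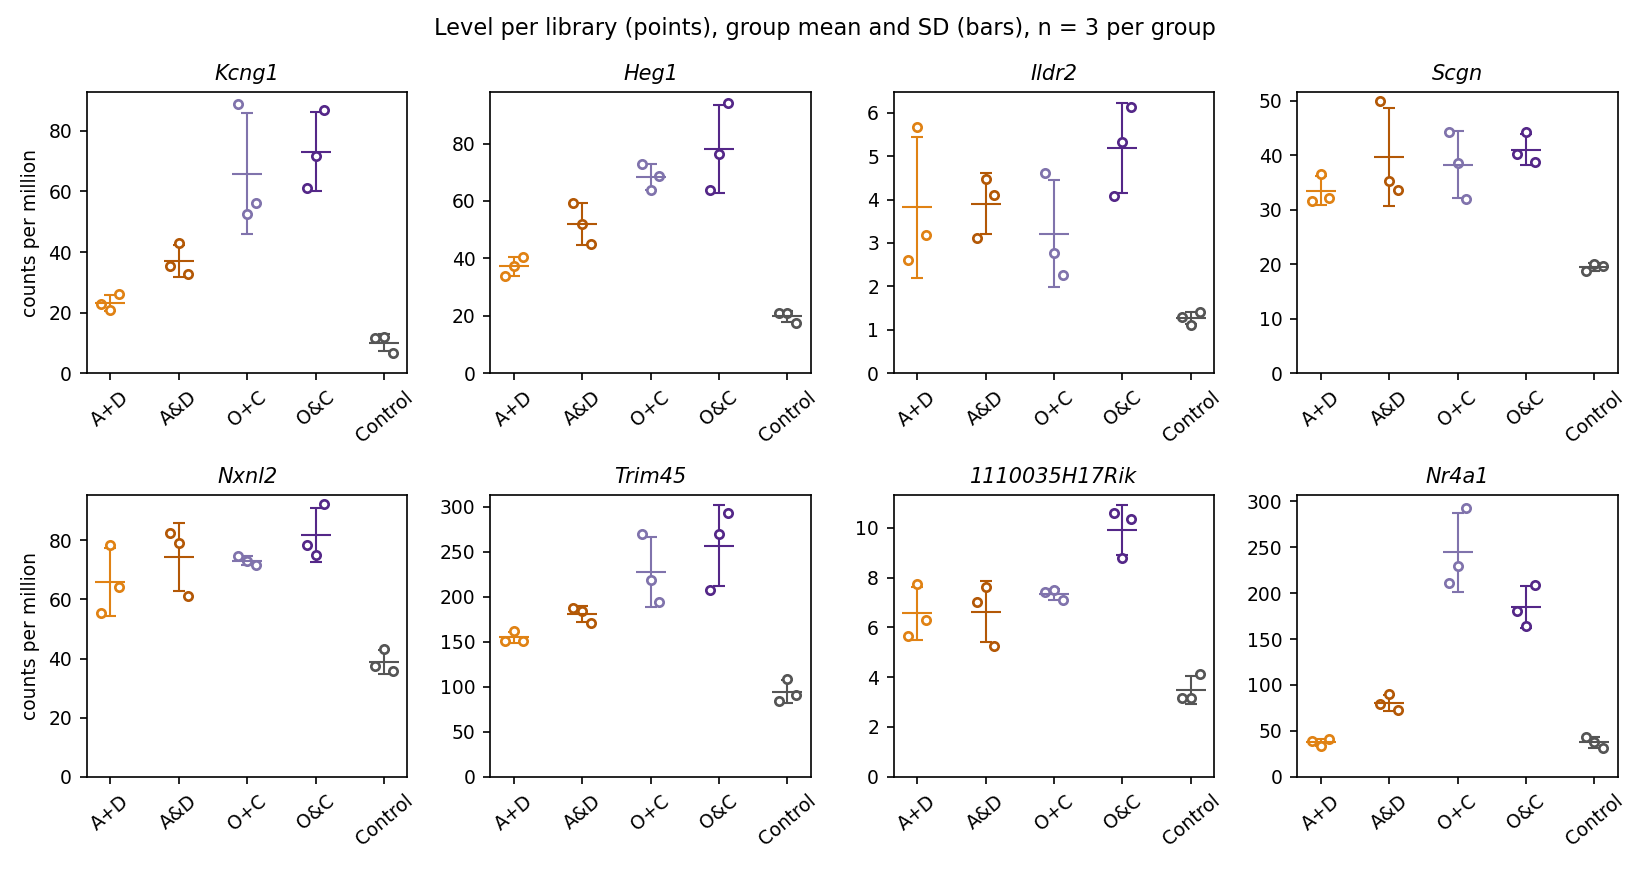
CPM per library (open points), with the group mean and SD (bars, n = 3 libraries per group), for the 7 genes called in each odour group and for Nr4a1. For the 7 genes every odour library lies above every Control library, while Nr4a1 in A+D (33.5 to 41.0 CPM) overlaps Control (31.1 to 43.6 CPM).

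The 12 members with the largest rise at 5 CPM or more were, by role, 3 adhesion and guidance molecules (Pcdh10, Kirrel2, Sema7a), 2 immediate early transcription factors (Fosb, Nr4a1), 2 regulators of ion channels (Kcng1, Rem2), and Lrrc3b, Heg1, S100a3, Lor and Nptx2. For 8 of the 12 all odour libraries lay above Control, where 3.07% of all genes tested did. The 12 were chosen by their rise in these libraries, so this is no separate support. Pcdh10, a protocadherin, was at 15.9, 31.5 and 26.6 CPM in A+D, 47.4, 39.99 and 24.96 CPM in A&D, 61.4, 37.7 and 46.2 CPM in O+C, and 32.4, 56.3 and 60.4 CPM in O&C, against 7.60, 10.1 and 4.26 CPM in Control. Its log2 fold change of 2.40 ± 0.33 (adjusted p = 0.000939, edgeR) was the largest among the 12, and it was not whole in 8 libraries. With only the 10 libraries in which Obp2a was over 10 CPM, a setting chosen after seeing the data, its adjusted p was 0.0548 (edgeR).

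Kirrel2, an immunoglobulin adhesion molecule that sorts sensory axons, averaged 503 ± 168 CPM in odour libraries and 198 ± 22.8 CPM in Control (SD, n = 12 and 3), a log2 change of 1.29 ± 0.16 (adjusted p = 0.000231, edgeR). Its relative Kirrel3 rose by 0.69 ± 0.10 (adjusted p = 0.000472, edgeR) and shares reads. Sema7a, a membrane-anchored semaphorin, was at 9.94, 10.0 and 12.03 CPM in A+D, 12.3, 17.4 and 15.8 CPM in A&D, 30.8, 20.4 and 20.5 CPM in O+C, and 23.9, 29.6 and 36.1 CPM in O&C, against 9.09, 8.57 and 6.16 CPM in Control. A+D lay closest to Control, and the pooled log2 change was 1.21 ± 0.18 (adjusted p = 0.000489, edgeR). Lrrc3b, a leucine-rich repeat membrane protein, was at 190 to 789 CPM in odour libraries against 124, 147 and 98.7 CPM in Control, a log2 change of 1.80 ± 0.20 (adjusted p = 9.37e-05, edgeR), and shares reads.

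Rem2, a small GTPase that restrains voltage-gated calcium channels, was at 5.71 to 18.6 CPM in odour libraries and at 3.80, 4.11 and 3.51 CPM in Control, a log2 change of 1.34 ± 0.14 (adjusted p = 2.48e-05, edgeR). Nptx2, a secreted pentraxin of synapses, was at 11.6 to 45.3 CPM in odour libraries against 12.4, 10.5 and 9.21 CPM in Control, so that 1 odour library (A+D 2) overlapped Control (log2 change 1.24 ± 0.16, adjusted p = 0.000245, edgeR). S100a3, an EF-hand protein that shares reads, rose by 1.28 ± 0.21 (adjusted p = 0.00127, edgeR). Lor, a protein of the cornified envelope, rose by 1.26 ± 0.28 (adjusted p = 0.0118, edgeR), a call that was lost without Control 1 or without Control 3 (adjusted p up to 0.0781).

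Some members outside the naming rule are given because they encode secreted products, and they were chosen after their values were seen. Cartpt, the precursor of the CART neuropeptide, was at 54.8, 95.7 and 74.2 CPM in A+D, 147, 96.6 and 77.4 CPM in A&D, 87.2, 74.2 and 70.3 CPM in O+C, and 75.5, 93.6 and 101 CPM in O&C, against 31.1, 39.0 and 42.6 CPM in Control. All odour libraries lay above Control with no order among the odour groups, and the log2 change was 1.20 ± 0.19 (adjusted p = 0.00164, edgeR). Chga, chromogranin A of secretory granules, rose by 0.96 ± 0.12 (adjusted p = 0.000209, edgeR), and Olfm1, a secreted glycoprotein of neurons, by 0.98 ± 0.13 (adjusted p = 0.00035, edgeR).

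**Figure D2:**
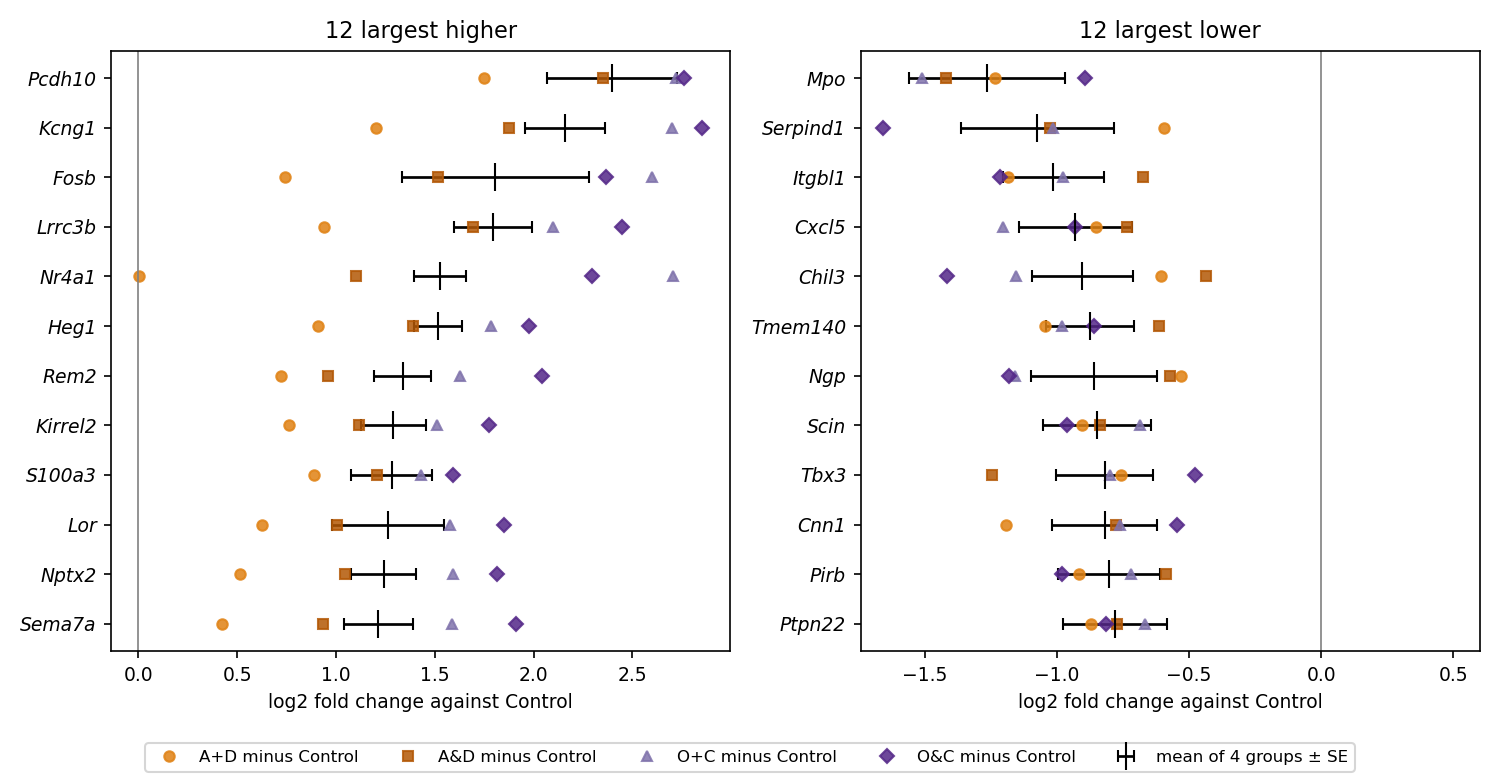
Log2 fold change against Control in each odour group (coloured symbols), with the mean of the 4 groups and its SE (black), for the 12 named members with the largest rise (left) and the largest fall (right). On the left A+D is the smallest and O+C or O&C the largest for each gene, from 1.21 for the mean of Sema7a to 2.40 for Pcdh10. On the right the groups show no common order.

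Promoter windows of RefSeq (GRCm38.p6, 250 bases before to 50 after the start) are shown for 3 higher members, chosen after their matches were seen, since cyclic AMP signalling acts through the cAMP response element, whose letters are TGACGTCA. The short element TGACG, which is part of the full one, was also searched, and both strands were read (CGTCA on the other strand). Capitals mark these matches. Kcng1 and Nptx2 were not matched to a window. Nr4a1 lies at chr15:101266596-101266895 on the plus strand, Cartpt at chr13:99900634-99900933 on the minus strand and Pcdh10 at chr3:45378148-45378447 on the plus strand.
Nr4a1: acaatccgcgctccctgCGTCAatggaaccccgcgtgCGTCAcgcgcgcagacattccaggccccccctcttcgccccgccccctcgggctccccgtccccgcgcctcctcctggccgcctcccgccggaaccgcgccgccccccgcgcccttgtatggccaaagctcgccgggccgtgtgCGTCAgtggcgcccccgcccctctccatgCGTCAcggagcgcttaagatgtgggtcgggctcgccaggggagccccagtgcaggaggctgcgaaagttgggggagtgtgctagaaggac
Cartpt: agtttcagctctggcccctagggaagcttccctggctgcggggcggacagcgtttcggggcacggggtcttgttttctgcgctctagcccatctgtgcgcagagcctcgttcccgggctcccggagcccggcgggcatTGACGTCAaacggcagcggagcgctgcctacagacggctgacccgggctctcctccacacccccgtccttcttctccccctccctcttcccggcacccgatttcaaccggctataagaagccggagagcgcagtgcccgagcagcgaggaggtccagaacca
Pcdh10: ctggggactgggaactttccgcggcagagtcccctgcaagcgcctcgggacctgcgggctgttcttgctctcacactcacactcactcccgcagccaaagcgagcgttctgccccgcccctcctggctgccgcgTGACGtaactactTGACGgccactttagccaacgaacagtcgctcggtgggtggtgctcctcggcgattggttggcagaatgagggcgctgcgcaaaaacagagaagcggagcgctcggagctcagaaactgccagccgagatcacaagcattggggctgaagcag

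The Nr4a1 window held 4 short elements, the Pcdh10 window 2 short elements, and the Cartpt window 1 full element. The full element was found in 24 of 647 higher members with a window (3.71%), in 7 of 425 lower members (1.65%), and in 3.02% of the 12764 non-receptor genes tested that had one. Among all 27025 promoters in the table it was in 1.88%. Of the higher members that remained in every fit without 1 library, 10 of 146 held the full element (6.85%) and 35 of 146 the short one (24.0%). Of the higher members still called when libraries were scaled on the mature neuron markers, 1 of 26 held the full element (3.85%) and 8 of 26 the short one (30.8%). The short element was in 28.4% of higher members, 18.4% of lower members and 29.4% of the non-receptor genes tested. These are matches of letters, not measured binding.

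Among 26 immediate early genes, the transcription factors and effectors switched on within minutes of activity, 5 were called higher, 0 lower and 21 neither (edgeR), with a median log2 change of 0.09 where that of all genes tested was -0.004. The members were Nr4a1, Fosb, Egr4 and Maff, and Ier2 had mixed signs. Nr4a1, an orphan nuclear receptor, was at 38.5, 33.5 and 41.0 CPM in A+D, 78.8, 90.1 and 72.3 CPM in A&D, 211, 229 and 293 CPM in O+C, and 181, 164 and 209 CPM in O&C, against 43.6, 37.9 and 31.1 CPM in Control. Its pooled log2 change was 1.53 ± 0.13 (adjusted p = 1.89e-06, edgeR), but the change in A+D was 0.01, so it met the same-direction rule by that margin, and in some fits without 1 library it did not meet it. Maff, a small Maf factor that shares reads, rose by 1.05 ± 0.18 (adjusted p = 0.00188, edgeR). Egr4, a zinc finger factor, was at 0.965 to 3.90 CPM in odour libraries against 0.404, 0.718 and 0.785 CPM in Control, a log2 change of 1.57 ± 0.32 (adjusted p = 0.00673, edgeR) that was lost without Control 1 (adjusted p = 0.0685).

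Fosb, a subunit of AP-1, rose by 1.81 ± 0.47 (adjusted p = 0.0326, edgeR), a call lost without Control 1, Control 2, Control 3, A&D 2 or O&C 3 (adjusted p up to 0.158). Its A+D libraries were at 0.923, 7.97 and 2.04 CPM, against 2.87, 1.68 and 1.94 CPM in Control. The classic activity markers Fos (log2 change 0.48, adjusted p = 0.467, edgeR) and Egr1 (0.38, adjusted p = 0.493, edgeR) were not called, nor were Npas4 (2.12, adjusted p = 0.0947, edgeR) and Nr4a2 (0.54, adjusted p = 0.226, edgeR). Fos was at -0.60 in A+D and 1.38 in O+C. With no filter on low counts these 4 were called (adjusted p = 0.00109 for Fos, 0.0136 for Egr1, 0.00879 for Npas4 and 0.00381 for Nr4a2, edgeR), at nearly the same log2 changes. The count of 5 was 2 without Control 1 and 3 without Control 2, Control 3 or O&C 3. Of the 26 genes, 3 were called lower without A+D 2. DESeq2 called 1 lower, limma voom called 5 lower, and 4 were lower at an unadjusted p under 0.05.

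Of 19 feedback regulators of MAP kinase and cyclic AMP signalling, 2 were called higher and 3 lower, with a median of -0.02. Dusp14, a phosphatase of MAP kinases, was at 282 to 681 CPM in odour libraries and at 223, 234 and 210 CPM in Control, a log2 change of 0.98 ± 0.12 (adjusted p = 0.000111, edgeR). The other gene called higher was Dusp1, of mixed signs and named after its value was seen (log2 change 0.36, adjusted p = 0.0361, edgeR). The count of 2 was 1 without Control 1, Control 2, Control 3, A+D 3, A&D 2, O+C 1 or O&C 3. The 3 that fell were Pde4b, a cAMP phosphodiesterase (-0.56, adjusted p = 0.011, edgeR), Rgs2, which dampens G proteins (-0.48, adjusted p = 0.0162, edgeR), and Dusp6, which acts on ERK (-0.39, adjusted p = 0.0306, edgeR). All 3 were lost without Control 1 or without Control 2 (adjusted p up to 0.0952, 0.117 and 0.135), and Dusp6 also without Control 3, O+C 1, O+C 3 or O&C 3.

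Most markers of mature sensory neurons and most genes of their transduction were called higher. Of 16 mature neuron markers 15 rose and 0 fell, with a median log2 change of 0.60. Of 15 genes linked to the activity of these neurons 11 rose and 0 fell (median 0.61), and of 16 genes of olfactory transduction 12 rose and 0 fell (median 0.54). Of 12 immature neuron markers 2 rose and 0 fell (median 0.06), and 1 rose without Control 1, Control 2, Control 3, A+D 3, A&D 2, O+C 1, O+C 3, O&C 2 or O&C 3. These counts are from edgeR, which called 5.26% of all genes tested higher and 3.06% lower. Some genes, Gnal, Adcy3 and Cnga2 among them, are on both the mature and the transduction list, so those counts overlap. For the counts of 0, limma voom called 1 transduction gene and 1 immature marker lower and DESeq2 called 0 lower in all 4 lists, and at an unadjusted p under 0.05 only 1 immature marker was lower. The activity-linked list was written from the known biology of these neurons with earlier results of these data in view, so its direction is not independent evidence. The group medians of the mature markers were 0.24 for A+D and 0.44 for A&D, then 0.78 for O+C and 0.94 for O&C. Without Control 1 the calls were 7 of the mature markers, 7 of the activity-linked genes and 4 of the transduction genes. Without Control 3 the activity-linked calls were 7 and the transduction calls 5, and without Control 2 the transduction calls were 6.

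In the transduction cascade, Gnal, the olfactory G protein subunit, was at 1131 to 1889 CPM in odour libraries against 918, 940 and 887 CPM in Control (log2 change 0.66 ± 0.08, adjusted p = 0.000212, edgeR). Adcy3, the adenylyl cyclase of the cilia, rose by 0.70 ± 0.13 (adjusted p = 0.00419, edgeR), with A+D 2 below all Control libraries. Both share reads. The channel subunits Cngb1 (0.67, adjusted p = 0.00353, edgeR) and Cnga2 (0.56, adjusted p = 0.0163, edgeR) rose, and Cnga2 was lost without Control 1, Control 2 or Control 3 (adjusted p up to 0.114). Gng13, a G protein gamma subunit that shares reads, rose by 1.05 ± 0.22 (adjusted p = 0.00908, edgeR), and was lost without Control 1 or without Control 2 (adjusted p up to 0.0704).

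Among the mature markers, Omp rose by 0.73 ± 0.12 (adjusted p = 0.00112, edgeR). Gfy, a Golgi protein needed for olfaction in mouse, was at 852 to 2376 CPM in odour libraries against 897, 789 and 708 CPM in Control (0.90 ± 0.13, adjusted p = 0.000675, edgeR). Umodl1 rose by 0.82 ± 0.11 (adjusted p = 0.000258, edgeR) and the transcription factor Ebf4 by 0.62 ± 0.09 (adjusted p = 0.000639, edgeR). Of the immature markers, Stmn4, a regulator of microtubules, rose by 0.67 ± 0.10 (adjusted p = 0.000804, edgeR). Among the activity-linked genes, S100a5, an EF-hand protein of active sensory neurons, was at 1932 to 4654 CPM in odour libraries against 1172, 1859 and 1551 CPM in Control. Its log2 change was 0.97 ± 0.22 (adjusted p = 0.0162, edgeR), and it was lost without Control 1 or without Control 3 (adjusted p up to 0.108). The guidance receptor Nrp1 was not called (0.17, adjusted p = 0.212, edgeR).

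The summed level of the mature markers ran between 12192 and 24332 CPM in the odour libraries (median 17772 CPM), against 10734, 10791 and 11990 CPM in the Control libraries. It moved with the higher members. When libraries were scaled on the mature marker list in place of all genes, the median of all genes moved to -0.685, and 37 of the 886 higher members were still called higher while the median of the 886 was -0.18. The 37 included 11 of the 12 with the largest rise, all but Fosb, at 0.52 to 1.72 on this scale (Sema7a 0.52, Heg1 0.83, Kcng1 1.47, Pcdh10 1.72). Trim45 (0.40), Ildr2 (0.94) and Dusp14 (0.29) were also among them. Scgn (0.28, adjusted p = 0.0959, edgeR), Nxnl2 (0.25, adjusted p = 0.127, edgeR) and 1110035H17Rik (0.42, adjusted p = 0.0724, edgeR) were not. The 12 were chosen for their large rise, and the scaling lowered genes by a similar amount. That 11 of them stayed higher is therefore no separate support. On the same scale the list medians were -0.09 for mature markers, -0.16 for transduction genes and -0.08 for activity-linked genes. No transduction gene was then called higher and 4 were called lower, and 5 of the activity-linked genes were called higher and 2 lower. Gnal, Cngb1, Cnga2, Ebf4 and Stmn4 took a negative sign there, between -0.13 and -0.02, and were not called. Of these, Gnal, Cnga2 and Ebf4 are on the scaling list itself. Their small values and the small median of the mature markers therefore follow from the scaling. The transduction list shares Gnal, Adcy3 and Cnga2 with the scaling list, so its median is partly set in the same way.

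**Figure D3:**
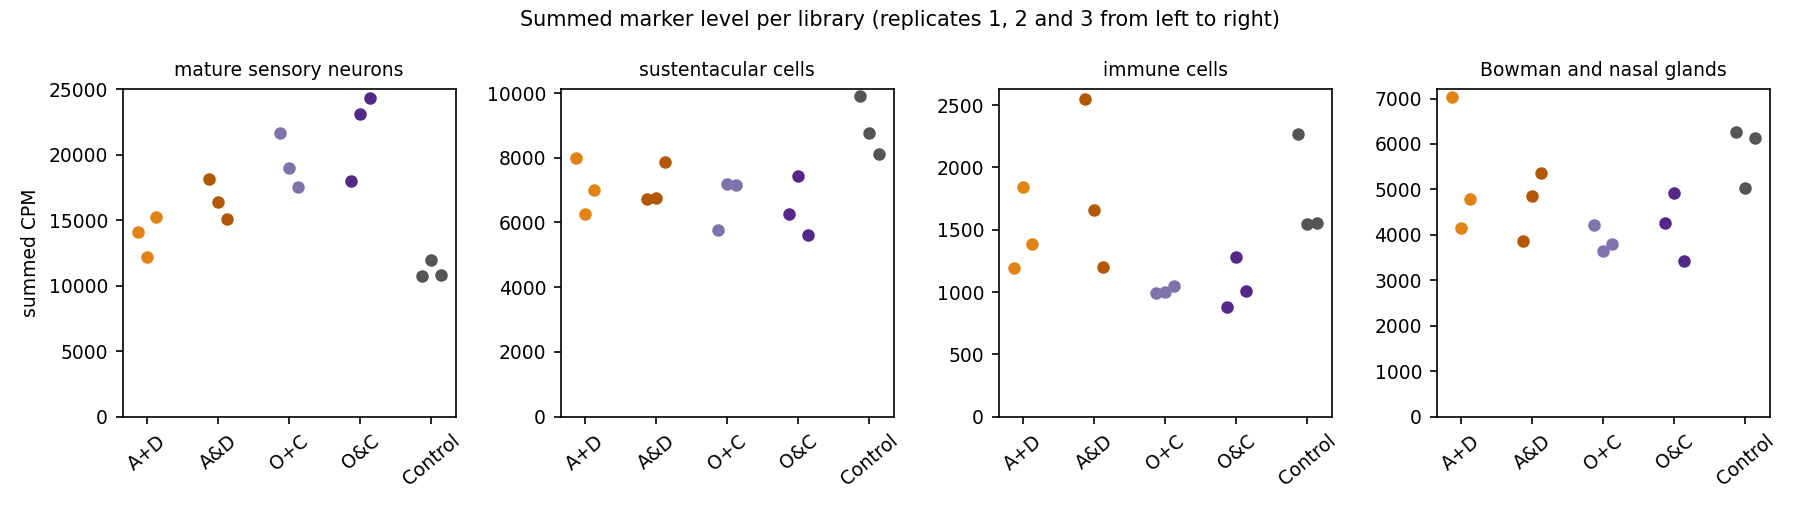
Summed CPM of 4 marker lists in each library (points, 3 per group). Mature neuron markers are higher in every odour library than in Control (12192 to 24332 against 10734 to 11990 CPM) and sustentacular markers are lower (5603 to 7986 against 8123 to 9908 CPM), while immune and gland markers overlap Control.

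Other neuronal gene families held smaller shares of members. Of 16 calcium-binding proteins 8 rose and 1 fell, with a median of 0.39. Besides Scgn these were led by Vsnl1, the neuronal calcium sensor visinin-like 1, at 21.4 to 39.7 CPM in odour libraries and 12.5, 17.7 and 15.9 CPM in Control (0.95 ± 0.13, adjusted p = 0.000256, edgeR). Of 66 protocadherins 9 rose and 0 fell (median 0.29). After Pcdh10 the smallest p was that of Pcdhb4, at 0.917 to 2.18 CPM in odour libraries against 0.647, 0.558 and 0.454 CPM in Control (1.28 ± 0.30, adjusted p = 0.0147, edgeR). Its call was lost without any one of the Control libraries (adjusted p up to 0.0772).

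Of 69 potassium channel genes 11 rose and 3 fell (median 0.16), and of 59 axon guidance genes 9 rose and 1 fell (median 0.17). After Kcng1, the potassium channel calls with the smallest p were Kcnh3, a voltage-gated channel of the EAG family (0.67 ± 0.11, adjusted p = 0.00126, edgeR), and Kcnn2, a small-conductance calcium-activated channel that shares reads (0.72 ± 0.12, adjusted p = 0.00129, edgeR). Without Control 1 the counts of risen genes were 3 calcium-binding proteins, 2 protocadherins, 5 potassium channels and 4 guidance genes. Without Control 2 they were 5, 3, 5 and 5, and without Control 3 they were 4, 3, 5 and 3. Without A+D 3, A&D 2 or O&C 3 there were 5 protocadherins, and without O&C 2 or O&C 3 there were 7 potassium channels. The count of fallen potassium channels was 0 without Control 1 and 5 without O&C 2, that of fallen calcium-binding proteins 0 without Control 1 or without Control 2, and that of fallen guidance genes 0 without Control 1 or without Control 3. On the scale of the mature markers the medians of these 4 lists were negative, between -0.52 and -0.30.

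**Figure D4:**
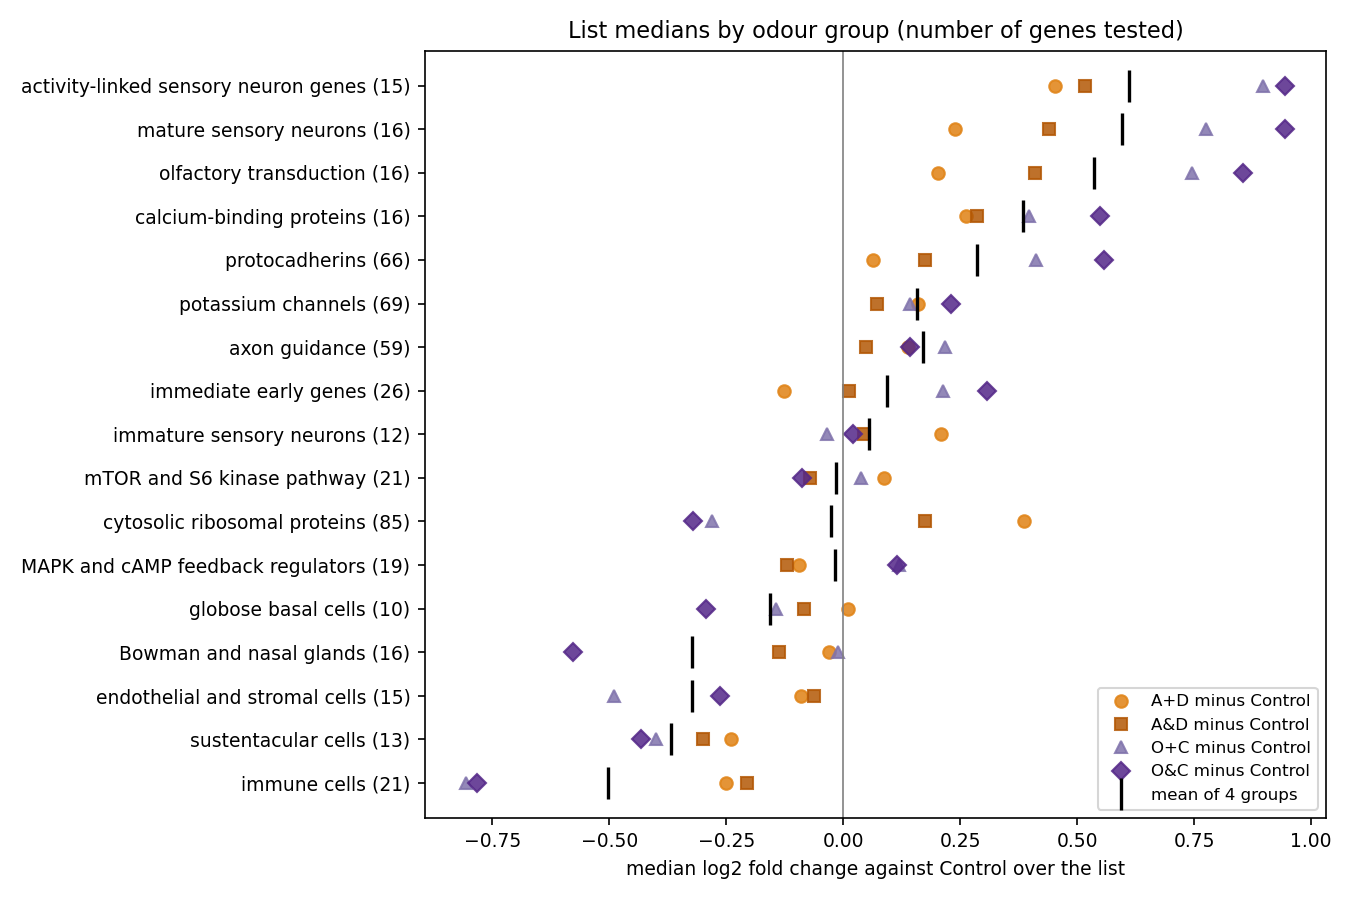
Median log2 fold change against Control over each gene list, for each odour group (coloured symbols) and for the mean of the 4 groups (black), with the number of genes tested in parentheses. Neuronal lists stand on the right (median 0.61 for activity-linked genes) and immune, sustentacular, stromal and gland lists on the left (-0.50 for immune genes).

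Of the 564 lower members 18 remained in every fit without 1 library, where 201 of the 886 higher members did. The 12 with the largest fall at 5 CPM or more were Mpo, Serpind1, Itgbl1, Cxcl5, Chil3, Tmem140, Ngp, Scin, Tbx3, Cnn1, Pirb and Ptpn22. Only Itgbl1 remained a member in all 15 fits without 1 library, and the other 11 were each lost in at least 1. Itgbl1, a secreted protein with integrin-like EGF repeats, was at 2.85, 2.57 and 1.75 CPM in A+D, 4.11, 3.10 and 3.03 CPM in A&D, 1.94, 3.77 and 2.57 CPM in O+C, and 2.51, 2.25 and 2.27 CPM in O&C, against 5.17, 6.46 and 4.71 CPM in Control. All odour libraries lay below Control, and the log2 change was -1.01 ± 0.19 (adjusted p = 0.00391, edgeR).

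A pair of added gene lists was chosen after the values were seen, so their counts support nothing. Of 13 neutrophil granule genes, which include Mpo, Ngp and Chil3, 4 fell, 0 rose and 9 were not called (median -0.62, edgeR). At an unadjusted p under 0.05, 10 were lower and 0 higher, and DESeq2 and limma voom each called 6 lower and 0 higher. The 4 became 0 without Control 1, and 2 without Control 2, A&D 2, A&D 3, O+C 2, O&C 2 or O&C 3. Of 11 osteoclast genes 5 fell and 1 rose (median -0.58). The 5 became 0 without Control 1 or without Control 2, 2 without A+D 3, A&D 1, A&D 2, O+C 1, O+C 3, O&C 1 or O&C 2, and 3 without O+C 2 or O&C 3.

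Mpo, the myeloperoxidase of neutrophil granules, was at 1.97 to 5.25 CPM in odour libraries against 11.2, 7.34 and 2.48 CPM in Control, so 1 Control library lay within the odour range. Its log2 change of -1.27 ± 0.29 (adjusted p = 0.0147, edgeR) was lost without Control 1 or without Control 2 (adjusted p up to 0.233). Ngp, the neutrophilic granule protein, was at 67.7 CPM in Control 1 and at 27.9 and 21.2 CPM in the other Control libraries, with 13.6 to 30.9 CPM in odour libraries (-0.86 ± 0.24, adjusted p = 0.0393, edgeR). That call was lost without Control 1 (adjusted p = 0.59) and without any one of 10 odour libraries, all but O+C 1 and O&C 1. Chil3, a chitinase-like protein of myeloid cells that shares reads, fell by 0.90 ± 0.19 (adjusted p = 0.00869, edgeR), and without Control 1 its adjusted p was 0.166.

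Cxcl5, a chemokine that attracts neutrophils, fell by 0.93 ± 0.21 (adjusted p = 0.0127, edgeR), lost without Control 2 (adjusted p = 0.102). Pirb, an inhibitory receptor of myeloid cells that shares reads, fell by 0.80 ± 0.19 (adjusted p = 0.0157, edgeR), lost without Control 1 or without Control 3 (adjusted p up to 0.132). Ptpn22, a phosphatase of immune cells (-0.78, adjusted p = 0.0204, edgeR), and Scin, an actin-severing protein (-0.85, adjusted p = 0.0162, edgeR), were each lost without Control 1 or without Control 2 (adjusted p up to 0.221 and 0.169). Serpind1, the thrombin inhibitor heparin cofactor II (-1.07, adjusted p = 0.0299, edgeR), was lost without Control 1, Control 2, Control 3, A&D 2 or O&C 3 (adjusted p up to 0.23). Tmem140, a membrane protein that shares reads (-0.88, adjusted p = 0.00422, edgeR), was lost without Control 1 (adjusted p = 0.0597). Tbx3, a T-box factor (-0.82, adjusted p = 0.0109, edgeR), was lost without Control 2 or without Control 3 (adjusted p up to 0.0851), and Cnn1, calponin of smooth muscle (-0.82, adjusted p = 0.0193, edgeR), without Control 1 or without Control 2 (adjusted p up to 0.136).

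The 18 lower members that remained in every fit without 1 library ranged in log2 change between -1.01 and -0.48. For 17 of them all odour libraries lay below Control, where 1.73% of all genes tested did. The 18 were chosen by tests on these same libraries, so this is no separate support. From the 18, Anxa1, Mmp13 and Slc18a1 are given after their values were seen. Anxa1, the anti-inflammatory annexin, was at 512, 488 and 493 CPM in A+D, 516, 453 and 595 CPM in A&D, 397, 475 and 420 CPM in O+C, and 389, 379 and 346 CPM in O&C, against 728, 681 and 667 CPM in Control (-0.62 ± 0.08, adjusted p = 0.000216, edgeR). Mmp13, a collagenase, was at 174 to 291 CPM in odour libraries and at 342, 433 and 325 CPM in Control (-0.70 ± 0.11, adjusted p = 0.00137, edgeR). Slc18a1, a vesicular monoamine transporter, was at 1.23 to 3.03 CPM in odour libraries and at 3.60, 3.27 and 3.80 CPM in Control (-1.01 ± 0.18, adjusted p = 0.00298, edgeR).

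Of 21 immune cell markers 6 fell and 0 rose, with a median of -0.50. Cx3cr1, the fractalkine receptor of macrophages and microglia, was at 6.10 to 14.8 CPM in odour libraries and at 14.8, 14.4 and 13.6 CPM in Control, and 11 of 12 odour libraries lay below Control. Its log2 change was -0.74 ± 0.15 (adjusted p = 0.00525, edgeR). Lyz2, lysozyme of myeloid cells that shares reads (-0.50, adjusted p = 0.00482, edgeR), was lost without Control 1 (adjusted p = 0.0784). Csf1r, the receptor for macrophage growth factor that shares reads (-0.57, adjusted p = 0.016, edgeR), and Cd68, a lysosomal protein of macrophages (-0.55, adjusted p = 0.0185, edgeR), were lost without Control 1 or without Control 2 (adjusted p up to 0.115 and 0.132). The summed immune level was 880 to 2545 CPM in odour libraries and 1543 to 2266 CPM in Control, so the groups overlapped. The count of 6 was 2 without Control 1 or Control 2 and 12 without A+D 2.

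Of 13 sustentacular cell markers 4 fell and 0 rose (median -0.37), and their summed level was lower in every odour library, 5603 to 7986 CPM against 8123 to 9908 CPM in Control. Cyp2a5, a detoxifying cytochrome P450 that shares reads, was at 1300 to 2072 CPM in odour libraries against 2734, 2282 and 2061 CPM in Control (-0.40, adjusted p = 0.0213, edgeR), lost without Control 1 or without Control 2 (adjusted p up to 0.223). Cbr2, a carbonyl reductase, fell by 0.40 (adjusted p = 0.0331, edgeR), a call lost without Control 1, Control 2, Control 3, A+D 3, O+C 1, O+C 3 or O&C 3 (adjusted p up to 0.19). The count of 4 was 0 without Control 1 or Control 2, 1 without A+D 3, O+C 1, O+C 3 or O&C 3, 2 without Control 3 or A&D 2, 9 without A+D 1 and 10 without A+D 2.

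Of 16 gland markers 3 fell and 0 rose (median -0.32), with summed levels of 3425 to 7029 CPM in odour libraries and 5034 to 6265 CPM in Control. The gland medians by group were -0.03 for A+D, -0.14 for A&D, -0.01 for O+C and -0.58 for O&C. Bpifb4, a secreted lipid-binding protein, fell by 0.48 (adjusted p = 0.0112, edgeR), and without Control 1 its adjusted p was 0.108. The gland count was 0 without Control 1 and 1 without Control 2, Control 3, A+D 3, A&D 2, O&C 1 or O&C 3. Of 15 endothelial and stromal markers 4 fell and 0 rose (median -0.32), a count that was 0 without Control 1, 1 without Control 2 and 2 without Control 3. Their group medians were -0.09 for A+D, -0.06 for A&D, -0.49 for O+C and -0.26 for O&C. Kcnj8, a potassium channel of pericytes (-1.38, adjusted p = 0.00612, edgeR), was lost without Control 1 (adjusted p = 0.0773). Acta2, the actin of smooth muscle that shares reads (-0.65, adjusted p = 0.0127, edgeR), was lost without Control 1 or without Control 2 (adjusted p up to 0.0851). The part of these marker levels in the lower members was not tested.

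Of the remaining cell type lists written with the others, none had more than 2 calls. Of 8 horizontal basal cell markers only Krt15, a basal keratin, fell (-1.33, adjusted p = 0.0117, edgeR), and without Control 2 its adjusted p was 0.268. The edgeR test called 0 of 10 globose basal cell markers, 0 of 10 ensheathing glia markers and 0 of 7 red blood cell genes. At an unadjusted p under 0.05 these lists had 2, 4 and 3 lower genes and 0 higher, DESeq2 called 0, 2 and 0 of them lower, and limma voom called 0, 4 and 1 lower. Of 10 respiratory ciliated cell markers 2 fell (0 without Control 1 and 1 without Control 3), and of 10 microvillar and tuft cell markers 1 rose and 1 fell. The 1 that rose was lost without Control 1, Control 2, Control 3, A&D 2, O+C 1 or O&C 3, and the count of fallen ones was 0 without Control 1 and 2 without A+D 1 or A+D 2. Red blood cell genes summed to 10195 to 33028 CPM in odour libraries and 18143 to 28779 CPM in Control.

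Housekeeping and stress lists also held few members. The edgeR test called 0 of 21 genes of the mTOR and S6 kinase pathway, which phosphorylates S6, 0 of 85 cytosolic ribosomal protein genes and 0 of 12 mitochondrial transcripts. At an unadjusted p under 0.05 there were 1, 1 and 0 lower genes and 0 higher, DESeq2 called 1, 0 and 0 lower, and limma voom called 2, 3 and 0 lower. The groups did not move alike. The ribosomal medians were 0.39 for A+D and 0.17 for A&D, but -0.28 for O+C and -0.32 for O&C, and the mitochondrial medians were 0.58 for A+D and 0.495 for A&D, but -0.27 for O+C and -0.84 for O&C. Of 12 genes of the oxidative and aryl hydrocarbon response 1 rose and 2 fell, and 0 fell without Control 1 or without Control 2. Nqo1, a quinone reductase, was at 185 to 393 CPM in odour libraries against 124, 184 and 124 CPM in Control (0.84 ± 0.19, adjusted p = 0.0132, edgeR), lost without Control 1 or without Control 3 (adjusted p up to 0.0977). Cyp1a1, a target of the aryl hydrocarbon receptor that shares reads, fell by 0.48 (adjusted p = 0.0299, edgeR), lost without any one of the Control libraries (adjusted p up to 0.175). Of 20 unfolded protein and heat shock genes 2 fell, one of them Hspa1b, an inducible chaperone that shares reads (-0.61, adjusted p = 0.011, edgeR), lost without Control 1 or without Control 2 (adjusted p up to 0.106). Of 15 clock genes 1 rose with mixed signs and 1 fell. Nr1d1, a repressor of the clock that shares reads, was the one that fell, at 40.9 to 65.0 CPM in odour libraries and 87.6, 80.1 and 72.9 CPM in Control (-0.60 ± 0.12, adjusted p = 0.00543, edgeR), with an adjusted p of 0.0648 without Control 1. The fallen clock genes were 2 when A&D 3, Control 3, A+D 1 or A+D 2 was left out. The risen ones were 0 without Control 1, Control 2, Control 3, A+D 3, A&D 2 or O&C 3 and 2 without A+D 2. The count of fallen unfolded protein and heat shock genes was 0 without Control 1 or without Control 2 and 1 without A&D 2 or O&C 3.

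The size of the members was then compared between the odorant pairs, as O+C and O&C minus A+D and A&D, which uses no Control library. The members were chosen by a test on the same 12 odour libraries, with the same estimate of spread and a rule on the sign in each group, so their share of calls is a description and not independent of that choice. Of the 886 higher members 476 (53.7%) were higher with octanal and cis-3-hexenol than with acetophenone and decanal, and 0 were lower, where 9.03% of all genes tested were higher and 6.74% lower. Their median difference was 0.32 on the log2 scale. Of the 564 lower members 107 (19.0%) were lower still with the octanal pair and 2 were higher, with a median of -0.14. Summed mature markers were also higher with the octanal pair, at 17525 to 24332 CPM against 12192 to 18176 CPM with the acetophenone pair. Other lists moved with the pairs too, in both directions. Called lower with the octanal pair were 76 of 85 cytosolic ribosomal protein genes (median -0.57) and 9 of 12 mitochondrial transcripts (-1.14). So were 5 of 7 red blood cell genes (-0.695) and 9 of 21 immune markers (-0.63), with 0 higher in each of these lists. Called higher were 11 of 16 transduction genes (median 0.44) and 12 of 26 immediate early genes (0.32). So were 8 of 15 activity-linked genes (0.44) and 13 of 69 potassium channels (0.08). The transduction, immediate early, activity-linked and potassium channel lists held 0, 1, 1 and 2 genes called lower. The part of these lists in the difference was not tested.

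Nr4a1 differed most among the genes named here, by 1.95 ± 0.11 (adjusted p = 1.24e-09, edgeR). Kcng1 differed by 1.24 ± 0.15 (adjusted p = 7.71e-05, edgeR), Heg1 by 0.73 ± 0.10 (adjusted p = 0.00011, edgeR) and Trim45 by 0.53 ± 0.10 (adjusted p = 0.002, edgeR). Of the 12 members with the largest rise 10 were higher with the octanal pair, all but Pcdh10 (0.69 ± 0.24, adjusted p = 0.0708, edgeR) and S100a3. No difference between the pairs passed the test for Scgn (0.12 ± 0.10), Nxnl2 (0.14 ± 0.10), Ildr2 (0.08 ± 0.21), Vsnl1 (0.25 ± 0.10), S100a5 (0.22 ± 0.18) or Gng13 (0.04 ± 0.18), each as a log2 difference with its SE. Of the 12 lower members named, only Chil3 differed between the pairs (-0.76, adjusted p = 0.0117, edgeR), and Itgbl1 differed by -0.16 ± 0.19.

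**Figure D5:**
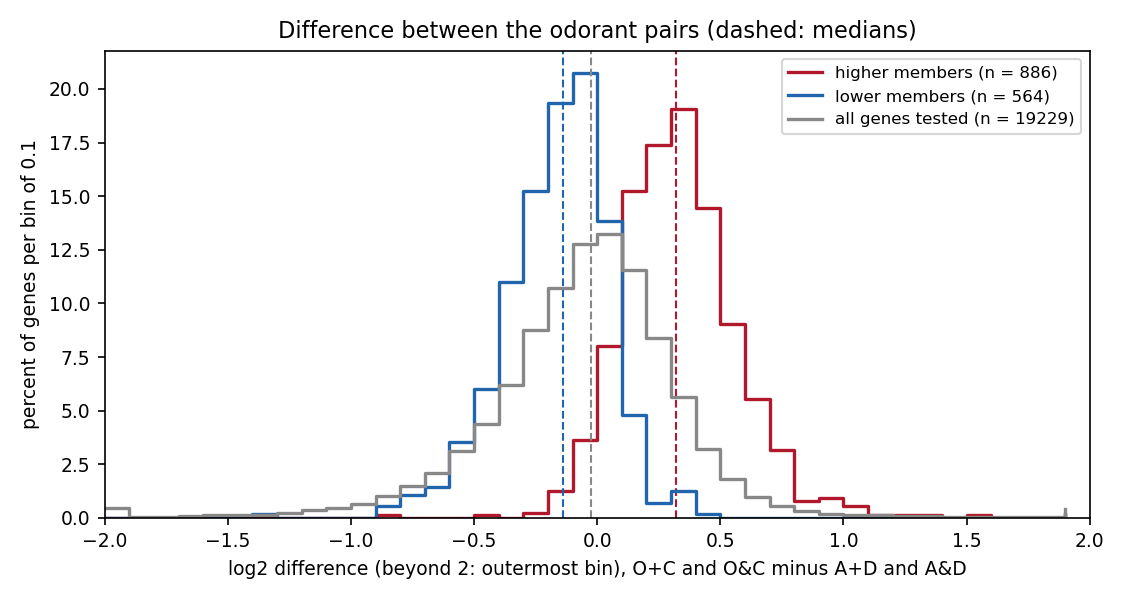
Distribution of the log2 difference between the odorant pairs (O+C and O&C minus A+D and A&D) over the 886 higher members, the 564 lower members and all genes tested, as the percent of genes per bin of 0.1, with medians as dashed lines. The higher members are shifted to the right (median 0.32) and the lower members slightly to the left (median -0.14).

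Delivery on a single paper (A+D and O+C) was compared with separate papers (A&D and O&C) in the same way. It called 0 members in either direction, and over all genes tested 0 were higher and 13 lower (0.0676%). At an unadjusted p under 0.05 151 of the 886 higher and 19 of the 564 lower members differed, and no other tool was run for this contrast. The share of all genes tested at that unadjusted threshold was not counted, and the directions were not split. No reading is therefore drawn from the 151 and the 19.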

How the data were processed

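Ribosome-bound RNA from pS6-IP of mouse olfactory epithelium was sequenced in 15 libraries, 3 in each of 5 groups. The authors deposited estimated counts per Ensembl gene that are not scaled by library size, and STAR 2.7.10b, Salmon 1.10.1, R 4.4.2 and the build GRCm39 are named, with no roles, per the submitters' processing notes. Annotation, options and strand setting are not given in the sources used here. Symbols were matched for 52029 of 57010 IDs.

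Counts were rounded and fitted in R 4.3.3 with the robust quasi-likelihood test of edgeR 4.0.16, with TMM scaling, filterByExpr (minimum count 10), a mean per group and no covariate, over all 15 libraries. The contrast was the mean of the 4 odour group means minus Control, and p-values were adjusted by Benjamini-Hochberg over all 19229 genes tested, two-sided, at 0.05. The biological coefficient of variation was 0.183. The test was checked on simulated data. P-values measure the spread between these replicates, and depth was 22704177 to 25287060 counts a library.

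Named genes were the 12 members with the largest and the 12 with the smallest pooled change, with a symbol other than a Gm, Rik or pseudogene name and 5 CPM or more, all members called in each of 4 groups, and up to 4 called genes with the smallest p per list. Immediate early, activity-linked and transduction genes could be named whether called or not, and not every gene the rule names is reported here. The members and lists were chosen with earlier results of these data known. Alternatives were DESeq2 (1.42.0) size factors or Wald test, limma (3.58.1) voom with quality weights, no filter, scaling on the mature neuron list, a replicate block, a gland term, non-robust dispersion, and leaving out each odour group or library. Restriction to the 10 libraries with Obp2a over 10 CPM was added after seeing the data. Promoters came from RefSeq (GRCm38.p6), without converting coordinates.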

Additional observations from a re-analysis of the deposited data

Results flagged for a closer look

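For 38 of 77 named genes examined, the response to odour differed between the odorant pairs in a test of the difference itself (edgeR, adjusted over all genes). The other 39 did not pass. Over all genes tested 9.03% were higher and 6.74% lower with the octanal pair. Most of the 77 were named for their values in these same libraries, so their share is a description. Values are log2 differences, O+C and O&C minus A+D and A&D.

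The named immediate early genes and feedback regulators that passed were higher with octanal and cis-3-hexenol. The differences were 1.95 for Nr4a1, 1.38 for Fos, 1.35 for Fosb, 1.32 for Nr4a2 and 1.14 for Egr1. They were 0.95 for Egr4, 0.67 for Maff, 0.59 for Dusp14 and 0.43 for Ier2. Over the full lists, 12 of 26 immediate early genes were called higher and 1 lower. Of 19 feedback regulators 7 were called higher and 0 lower. Among genes of adhesion, channels, secretion and other roles the differences were 1.24 for Kcng1, 1.07 for Sema7a, 1.00 for Rem2, 0.96 for Lrrc3b, 0.92 for Nptx2, 0.90 for Lor, 0.77 for Kcnh3, 0.77 for Kcnn2, 0.73 for Heg1, 0.72 for Olfm1, 0.70 for Kirrel2, 0.54 for Chga, 0.53 for Trim45 and 0.44 for Kirrel3. The named genes of transduction and of mature neurons that passed were also higher. Their differences were 0.74 for Gfy, 0.73 for Adcy3, 0.58 for Cnga2 and 0.54 for Ebf4. Those of Umodl1, Omp, Gnal and Cngb1 were 0.49, 0.43, 0.40 and 0.36. Over the full lists, 11 of 16 transduction genes and 13 of 16 mature markers were called higher and 0 lower.

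The named immune, supporting cell and gland genes that passed were lower with the octanal pair. The differences were -0.76 for Chil3, -0.54 for Cbr2, -0.52 for Lyz2 and -0.47 for Cd68. They were -0.44 for Cx3cr1, -0.35 for Anxa1 and -0.34 for Bpifb4. Over the full lists, 9 of 21 immune, 2 of 13 sustentacular and 3 of 16 gland markers were called lower and 0 higher. Single outlying samples were not looked for gene by gene, since each group has 3 libraries and the pooled odour set 12. The library A+D 2, which stood apart from the rest, is part of these differences. The differences were not refitted without it.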

How the results depend on the processing

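The counts of calls moved more than the fold changes, and scaling on the mature neuron markers moved both. Genes called higher (1011 as reported) were 114 with that scaling, 503 without the O&C group, 646 with only the libraries that held gland transcripts and 2130 with limma voom. Genes called lower (589) were 1003 with no filter, 14224 with that scaling, 349 without the O+C group, 215 without the O&C group, 251 with only the gland libraries, 940 with the DESeq2 Wald test and 1952 with voom. Higher members (886) were 37, 416, 540 and 1950 under the 4 settings named first. Lower members (564) were 890, 12815, 344, 209, 230, 892 and 1807 under the 7 settings in the order just given. Leaving out 1 library gave 369 to 1557 genes higher, 54 to 1057 lower, 294 to 1405 higher members and 45 to 1005 lower members. With the replicate number as a block there were 778 genes higher and 370 lower, and 671 and 360 members. Of 30 same-numbered pairs of libraries 3 correlated above 0.1, with r between -0.331 and 0.144. Pairs with different numbers had r between -0.218 and 0.329. These correlations showed no pairing by number, but with 3 libraries per group they cannot exclude it. The block ended the calls of Fosb, Dusp6, Cbr2, Cyp1a1 and Ier2.

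Scaling on the mature neuron markers turned the sign of 700 of the 1450 members. Among the genes named and called under either scaling it turned the sign of Kirrel3 (-0.00502), Gnal (-0.0289), Cngb1 (-0.0152), Ebf4 (-0.0703), Stmn4 (-0.0213), Kcnh3 (-0.0249), Cnga2 (-0.13), Ier2 (-0.35) and Nrp1 (-0.51). Fos (-0.15), Nr4a2 (-0.17) and Egr1 (-0.26), not called under either, also turned negative. These turns follow from centring on a list whose median rose. Under no other setting did a member change sign. In all settings 26 higher and 17 lower members stayed members. The cause of the other moves was not tested.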
